A study of Mus musculus with 3 samples.

Results

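The genes described here encode the constitutive proteasome, the large protease that cuts up proteins tagged with ubiquitin. They were taken as every mouse gene symbol that starts with Psm, a letter from a to g and a digit, leaving out Psmb8, Psmb9 and Psmb10, the inducible subunits of the immunoproteasome. The rule found 39 of the 20574 symbols in the files: 7 Psma, 7 Psmb, 6 Psmc, 11 Psmd, 3 Psme, 1 Psmf and 4 Psmg genes. Other Psm subunit symbols were not analysed here, apart from those 3 inducible ones. Psmc3ip, found by its symbol, encodes a protein of meiotic recombination and no proteasome subunit, and it was listed at 0 in all 3 libraries.

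The proteasome has a barrel-shaped core, in which rings of alpha subunits (Psma) guard the entry and rings of beta subunits (Psmb) hold the cutting sites. A regulatory particle caps the core: its ATPases (Psmc) unfold the substrate, and its other subunits (Psmd) bind ubiquitin chains, remove them or hold the lid together. Activators (Psme) can take the place of that cap, Psmf1 encodes a core-binding protein first described as an inhibitor, and Psmg proteins are chaperones that build the core. In macrophages the proteasome supplies peptides for MHC class I and degrades the inhibitor that holds NF-kB in the cytoplasm.

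RNA came from primary peritoneal macrophages of mice labelled WT, in 3 conditions with 1 library each. Macrophages received 5 apoptotic cells each for 5 h, or LPS, the endotoxin of Gram-negative bacteria, at 100 ng/ml for 5 h, or were untreated, with no time given. Neither the source of the apoptotic cells nor the age or sex of the mice is given in the labels. With 1 library per condition no difference below has a replicate check or a p-value, and treatment cannot be told apart from handling or from the library itself. In bulk RNA, fewer cells of a type and less RNA per cell cannot be told apart.

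The files name no unit. Values were taken as FPKM, fragments scaled to 1 kb of transcript and 1000000 mapped fragments, from the processing tools named by the submitters, and levels are compared between genes on that reading. They summed to 197222 after apoptotic cells, 200224 after LPS and 199881 in the untreated library. A step fitted to low values scaled by transcript length put 1 read on 1 kb at about 0.335, 0.325 and 0.315 FPKM in the same order. The step was sought within a fixed range only, and the fit was weak. A gene at 100 FPKM on 1 kb would then rest on about 299, 308 and 317 reads, and counting alone would place it between 89.0 and 112 FPKM. The intervals given below for ratios are built on these estimated read numbers, are approximate and cover counting error only. Of 10 macrophage markers, 5 were in the files, and they summed to 1488 FPKM after apoptotic cells, 139 after LPS and 360 untreated. Csf1r (185, 0 and 56.3 FPKM in that order) and Cd14 (555, 0 and 303 FPKM) were listed at 0 after LPS. Lgals3 (744, 137 and 0 FPKM) and Mrc1 (0.95, 1.15 and 0 FPKM) were listed at 0 untreated. Fcgr1 stood at 3.29, 0.377 and 0.115 FPKM. Markers of other cells differed between the libraries. The summed level of 10 T cell and thymocyte markers was 92.8 FPKM after apoptotic cells, 2.21 after LPS and 31.0 untreated, with 9, 6 and 4 of the 10 above 0. Rag1 stood at 41.2 FPKM after apoptotic cells, 0.679 FPKM after LPS and a listed 0 untreated. The T cell genes above 0 both after apoptotic cells and untreated stood lower after apoptotic cells. These were Cd3g (10.6 against 12.6 FPKM), Cd4 (1.8 against 3.48 FPKM), Rag2 (0.902 against 1.43 FPKM) and, by little, Dntt (13 against 13.5 FPKM). The 6 mast cell markers summed to 13.8, 10.2 and 93.0 FPKM and the 7 neutrophil markers to 325, 496 and 118 FPKM in that order. S100a8 (116, 222 and 48.1 FPKM) and Lcn2 (187, 272 and 64.1 FPKM) held most of the neutrophil sums. After LPS S100a9 and Ngp were listed at 0 and Mmp8 was lowest (16, 0.548 and 2.48 FPKM), while Camp was highest (0.752, 2.33 and 0.713 FPKM). Retnlg was listed at 0 throughout. The 6 B cell markers summed to 154, 89.4 and 86.1 FPKM, with Cd79a listed at 0 after apoptotic cells and Cd79a, Cd79b, Ms4a1 and Pax5 at 0 untreated. The B cell genes above 0 both after apoptotic cells and untreated, Blnk (38.4 against 82.7 FPKM) and Cr2 (0.0965 against 3.44 FPKM), stood lower after apoptotic cells than untreated. The part of these cells in the proteasome values was not tested.

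Promoters are shown for 5 genes because the differences below turn on them: Psma5 and Psmb6 of the core, Psme1 and Psme2 of the activator whose subunits parted after LPS, and Psmg4, the chaperone gene with the lowest ratio to the untreated library in both comparisons. Each runs 5′ to 3′ on the gene's strand, from 250 bases before the start to 50 after it, from RefSeq on GRCm38.p6, the assembly behind mm10. Capitals mark a match to 1 of 3 searched motifs.
Psma5, chr3:108256676-108256975, plus strand: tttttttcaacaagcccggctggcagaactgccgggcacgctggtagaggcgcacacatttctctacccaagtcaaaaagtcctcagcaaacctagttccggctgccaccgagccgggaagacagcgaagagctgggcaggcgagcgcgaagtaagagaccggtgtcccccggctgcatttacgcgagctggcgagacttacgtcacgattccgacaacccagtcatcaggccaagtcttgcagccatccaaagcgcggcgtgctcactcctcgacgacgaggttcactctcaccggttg
Psmb6, chr11:70525107-70525406, plus strand: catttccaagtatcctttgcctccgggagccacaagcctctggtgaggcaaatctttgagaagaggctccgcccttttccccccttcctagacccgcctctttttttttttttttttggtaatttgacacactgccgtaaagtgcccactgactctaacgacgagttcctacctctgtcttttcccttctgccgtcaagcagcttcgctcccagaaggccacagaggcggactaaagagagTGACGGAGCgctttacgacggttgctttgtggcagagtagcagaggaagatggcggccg
Psme1, chr14:55578244-55578543, plus strand: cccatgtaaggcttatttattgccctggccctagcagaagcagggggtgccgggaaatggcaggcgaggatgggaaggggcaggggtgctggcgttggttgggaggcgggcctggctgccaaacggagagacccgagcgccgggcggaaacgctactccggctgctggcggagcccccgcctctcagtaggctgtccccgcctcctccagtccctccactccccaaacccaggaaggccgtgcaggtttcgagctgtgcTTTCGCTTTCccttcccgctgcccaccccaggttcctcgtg
Psme2, chr14:55591052-55591351, minus strand: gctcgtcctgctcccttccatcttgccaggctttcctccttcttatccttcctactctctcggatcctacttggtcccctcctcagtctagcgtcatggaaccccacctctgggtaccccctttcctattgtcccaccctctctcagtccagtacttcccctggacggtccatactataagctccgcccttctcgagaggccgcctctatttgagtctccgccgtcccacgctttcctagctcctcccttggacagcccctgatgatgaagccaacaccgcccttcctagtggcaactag
Psmg4, chr13:34162714-34163013, plus strand: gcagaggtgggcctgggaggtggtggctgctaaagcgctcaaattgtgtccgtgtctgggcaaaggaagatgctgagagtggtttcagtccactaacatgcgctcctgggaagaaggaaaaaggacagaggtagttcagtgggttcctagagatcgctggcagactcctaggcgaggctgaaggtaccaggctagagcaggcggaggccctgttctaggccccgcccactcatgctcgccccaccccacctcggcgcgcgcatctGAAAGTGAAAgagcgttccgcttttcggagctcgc

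The motifs were the core antioxidant response element TGACNNNGC, which NRF1 and NRF2 can bind, the NF-Y box CCAAT and, added after the values were seen, the interferon-stimulated response element in the form of GAAA repeated after 2 bases of any kind, each on both strands. Promoters were in the table for 31 of the 39 genes. The antioxidant element was in 4 of them (12.9%), those of Psmb6, Psmc6, Psmd9 and Psmd12, against 14.0% of the 27025 genes with a promoter. In Psmb6 it begins 9 bases before the start. The NF-Y box was in 11 of 31 (35.5%, against 41.1% of all genes), among them 4 of 6 alpha ring genes and 0 of 3 chaperone genes. The interferon element was in 5 of 31 (16.1%, against 3.99% of all genes): Psmb3, Psmd4, Psmd9, Psme1 and Psmg4. In Psme1 it begins at base 10 after the RefSeq start, on the minus strand, and in Psmg4 at base 16. The GENCODE M21 span of Psme1 begins earlier, at 55578123, so the whole window shown lies inside that span. The interferon element was in 0 of the 3 immunoproteasome promoters in the table. A match describes letters in these windows and not binding.

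Proteasome genes were abundant in the libraries where they had a value. Above 0, core genes other than the tissue forms Psma8 and Psmb11 lay between the 94.2 and 98.8 percentiles of all genes above 0 in the same library, and ATPase genes between 91.3 and 97.6. The 4 Psmg chaperones lay lower, between 59.1 and 86.2. The median of all members above 0 was 65.4 FPKM after apoptotic cells (31 genes), 91.5 FPKM after LPS (28 genes) and 78.1 FPKM untreated (27 genes), where the median of all genes above 0 was 3.995, 3.46 and 3.14 FPKM. Psmb11, the beta subunit of the thymus proteasome, was listed at 0 in every library. Psma8, the testis form of an alpha subunit, stood at 0.861 FPKM after apoptotic cells and was listed at 0 in the other libraries.

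Listed zeros were frequent among abundant members. Of the 36 members that reached 5 FPKM in some library, 19 (52.8%) were listed at 0 in at least 1 other, against 60.8% of the 5379 genes that reached 5 FPKM. By library this concerned 6 of the 36 after apoptotic cells (16.7%, against 22.9% of all such genes), 8 after LPS (22.2% against 20.9%) and 9 untreated (25% against 41.0%). Core subunits are used by every cell, so such a 0 is given as listed and no ratio is formed on it. A listed 0 can be a failed estimate instead of an absence of reads, and the files do not tell which it is. This left 17 members above 0 in all 3 libraries.

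**Figure D1:**
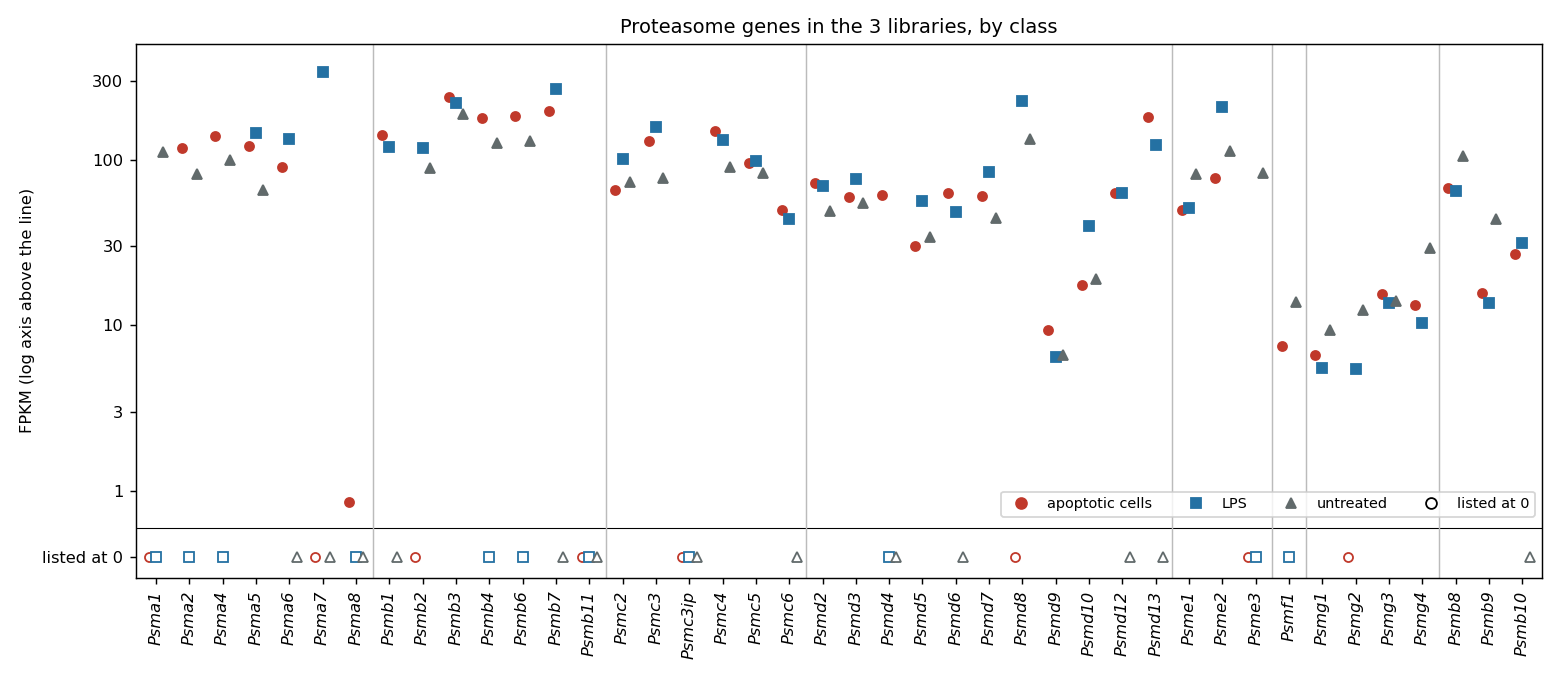
Level in FPKM (log axis) of the 39 genes and the 3 immunoproteasome genes in the libraries after apoptotic cells, after LPS and untreated, grouped by class. Open symbols under the line are values listed at 0, and the core genes above 0, other than Psma8, sit between 66.0 and 340 FPKM.

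Among alpha ring genes, Psma5 alone was above 0 in every library, at 121 FPKM after apoptotic cells, 146 FPKM after LPS and 66.0 FPKM untreated. Psma2 stood at 118 FPKM after apoptotic cells and 81.8 FPKM untreated, and was listed at 0 after LPS. Psma4 followed the same pattern, at 139 and 99.5 FPKM with a listed 0 after LPS. In each of these genes the untreated value was the lowest of those above 0. Psma6 stood at 90.9 FPKM after apoptotic cells and 134 FPKM after LPS and was listed at 0 untreated. Psma7 had a value after LPS only, 340 FPKM, the highest of any member, and Psma1 in the untreated library only, 111 FPKM. These last genes therefore show nothing about treatment.

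Among beta ring genes, Psmb3 was above 0 throughout, at 240 FPKM after apoptotic cells, 221 FPKM after LPS and 189 FPKM untreated. The catalytic subunit gene Psmb6, whose product cuts after acidic residues, stood at 183 FPKM after apoptotic cells and 129 FPKM untreated and was listed at 0 after LPS. The catalytic subunit gene Psmb7, whose product cuts after basic residues, stood at 198 FPKM after apoptotic cells and 266 FPKM after LPS and was listed at 0 untreated. No catalytic subunit among the members thus had a value in all 3 libraries. Psmb1 stood at 141 FPKM after apoptotic cells and 120 FPKM after LPS (untreated listed at 0). Psmb2 stood at 117 FPKM after LPS and 89.7 FPKM untreated (apoptotic cells listed at 0), and Psmb4 at 178 FPKM after apoptotic cells and 127 FPKM untreated (LPS listed at 0).

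With apoptotic cells set against no treatment, core genes stood modestly higher. All 6 core genes above 0 in both libraries were higher, against 44.5% of all genes. They stood at 1.27 times the untreated value for Psmb3 (counting interval 1.10 to 1.47) to 1.84 times for Psma5 (1.55 to 2.18). Psma2 (1.44), Psmb6 (1.42), Psma4 (1.40) and Psmb4 (1.40) lay between them. The base ATPase genes Psmc3 and Psmc4 were higher too, at 1.67 times (1.46 to 1.91) and 1.65 times (1.44 to 1.89) untreated, as was the base gene Psmd2 at 1.47 times (1.29 to 1.66). Lower than untreated stood the activator genes Psme1 (0.612, 0.491 to 0.757) and Psme2 (0.692, 0.571 to 0.841), the gene for PI31, Psmf1 (0.535, 0.319 to 0.867), and the chaperone gene Psmg4 (0.455, 0.223 to 0.866).

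On the log2(FPKM + 1) scale, for genes above 0 in both libraries whose 3 libraries averaged 1 FPKM or more, the median over 22 members was 0.27, beside -0.13 over all 3369 such genes. Over genes averaging 5 FPKM or more the all-gene median was 0.005, while that of the members stayed at 0.27. The shares below are of the 3369 genes. Of the 22 members 14 were higher by any amount, against 44.5% of all genes, and 8 were lower, against 55.4%. At 2-fold, 0 were higher, against 12.4% of all genes, and 1 was lower, Psmg4 (-1.08), against 16.4%. At 1.5-fold 3 were higher, against 22.1% of all genes, and 3 were lower, against 30.3%. By class the median was 0.52 for Psma (3 genes), 0.48 for Psmb (3), 0.46 for Psmc (4) and 0.28 for Psmd (6), and it was -0.61 for Psme (2), -0.82 for Psmf1 and -0.45 for Psmg (3). The 8 lower members were Psmc2, Psmd5, Psmd10, Psme1, Psme2, Psmf1, Psmg1 and Psmg4, none of them a core subunit gene. Under median-of-ratios scaling Psmc2, Psmd5 and Psmd10 turned to the higher side, so that 17 members were higher and 5 lower, against 52% and 48% of all genes. At 2-fold Psmg4 (-0.87) then no longer passed and Psma5 (1.08) did.

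Psmc genes were uneven. Psmc2 stood at 65.4 FPKM after apoptotic cells, 101 FPKM after LPS and 73.9 FPKM untreated. Psmc3 stood at 130, 158 and 78.1 FPKM in that order, Psmc4 at 149, 132 and 90.6 FPKM, and Psmc5 at 95.2, 98.3 and 83.0 FPKM. The untreated library was the lowest in the last 3 of these and lay between the others in Psmc2. In Psmc2 and Psmc5 the untreated and apoptotic-cell values lay within counting error of each other. Psmc6 stood at 49.6 FPKM after apoptotic cells and 44.1 FPKM after LPS, the lowest ATPase in both, and was listed at 0 untreated. After LPS all 4 ATPase genes that could be compared were higher than untreated, against 33.5% of all genes. They stood at 1.18 times for Psmc5 (1.01 to 1.39) to 2.02 times for Psmc3 (1.78 to 2.30).

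Psmd genes hold the lid and base subunits and the base assembly chaperones. Psmd2, the large scaffold subunit of the base, stood at 72.0 FPKM after apoptotic cells, 69.0 FPKM after LPS and 49.1 FPKM untreated. The lid gene Psmd7 stood at 60.1, 84.6 and 44.5 FPKM in that order and the lid gene Psmd3 at 59.8, 76.5 and 54.7 FPKM. All 3 were lowest in the untreated library, Psmd3 within counting error of its apoptotic-cell value. Of the other lid genes, Psmd8 stood at 225 FPKM after LPS and 133 FPKM untreated and was listed at 0 after apoptotic cells. Psmd6 (62.8 and 48.2 FPKM), Psmd12 (62.8 and 63.4 FPKM) and Psmd13 (180 and 122 FPKM) had values after apoptotic cells and LPS and a listed 0 untreated. Psmd4, which encodes a ubiquitin receptor, had a value after apoptotic cells only, 61.0 FPKM.

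The base assembly chaperone genes Psmd5 and Psmd10 were, as were Psmc2 and Psme2, highest after LPS and lowest after apoptotic cells. Psmd10, which encodes gankyrin, stood at 17.6 FPKM after apoptotic cells, 39.9 FPKM after LPS and 19.2 FPKM untreated. Psmd5 stood at 30.2, 56.4 and 34.3 FPKM in that order. In both, LPS was the high library, at 2.07 times untreated for Psmd10 (1.56 to 2.78) and 1.65 times for Psmd5 (1.46 to 1.85). The apoptotic-cell and untreated values lay within counting error of each other, with ratios of 0.916 (0.651 to 1.30) and 0.881 (0.766 to 1.01). The chaperone gene Psmd9 was the lowest Psmd gene, at 9.35, 6.46 and 6.63 FPKM.

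With LPS set against no treatment, the subunit genes of core, ATPase ring and lid that could be compared stood higher and the core chaperone genes lower, Psmg3 only by a ratio of 0.983 that turned to the higher side under median-of-ratios and upper-quartile scaling. Psma5 was highest, at 2.21 times (1.87 to 2.60), followed by Psmd10 and Psmc3. Psmd7 stood at 1.90 times (1.59 to 2.27), Psmd8 at 1.70 times (1.53 to 1.89), Psmc4 at 1.46 times (1.27 to 1.68) and Psmd2 at 1.41 times (1.24 to 1.60). Of the core genes only 3 could be compared, and Psmb2 (1.31, 1.07 to 1.59) and Psmb3 (1.17, 1.01 to 1.36) were little above untreated. On the log2(FPKM + 1) scale the median over 20 members was 0.47, beside -0.40 over all 3421 genes.

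Of these 20 members 14 were higher by any amount, against 33.5% of all genes, and 6 were lower, against 66.5%. At 2-fold 3 were higher, against 8.51% of all genes: Psma5 (1.13), Psmd10 (1.01) and Psmc3 (1.01), of which the last 2 lie at the threshold. At 2-fold 2 were lower, against 26.2%: Psmg4 (-1.42) and Psmg2 (-1.05). Under median-of-ratios scaling neither passed (-0.83 and -0.50), and 12 members were 2-fold higher and 0 lower, against 18.9% and 13.2% of all genes; by any amount 16 were higher and 4 lower, against 54.3% and 45.7%. At 1.5-fold 7 were higher, against 15.9% of all genes, and 4 were lower, against 42.7%. The class medians were 0.30 for Psmb (2 genes), 0.50 for Psmc (4), 0.70 for Psmd (7) and -0.87 for Psmg (4). The all-gene median rested on the scaling: median-of-ratios scaling moved it by 0.51, upper-quartile scaling by 0.15. It moved by 0.18 for apoptotic cells against untreated under the first of these. The all-gene median also rested on the filter. Over genes averaging 5 FPKM or more it was -0.26 for LPS against untreated, with the member median at 0.47. Since both comparisons use the same untreated library, they are not independent of each other.

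**Figure D2:**
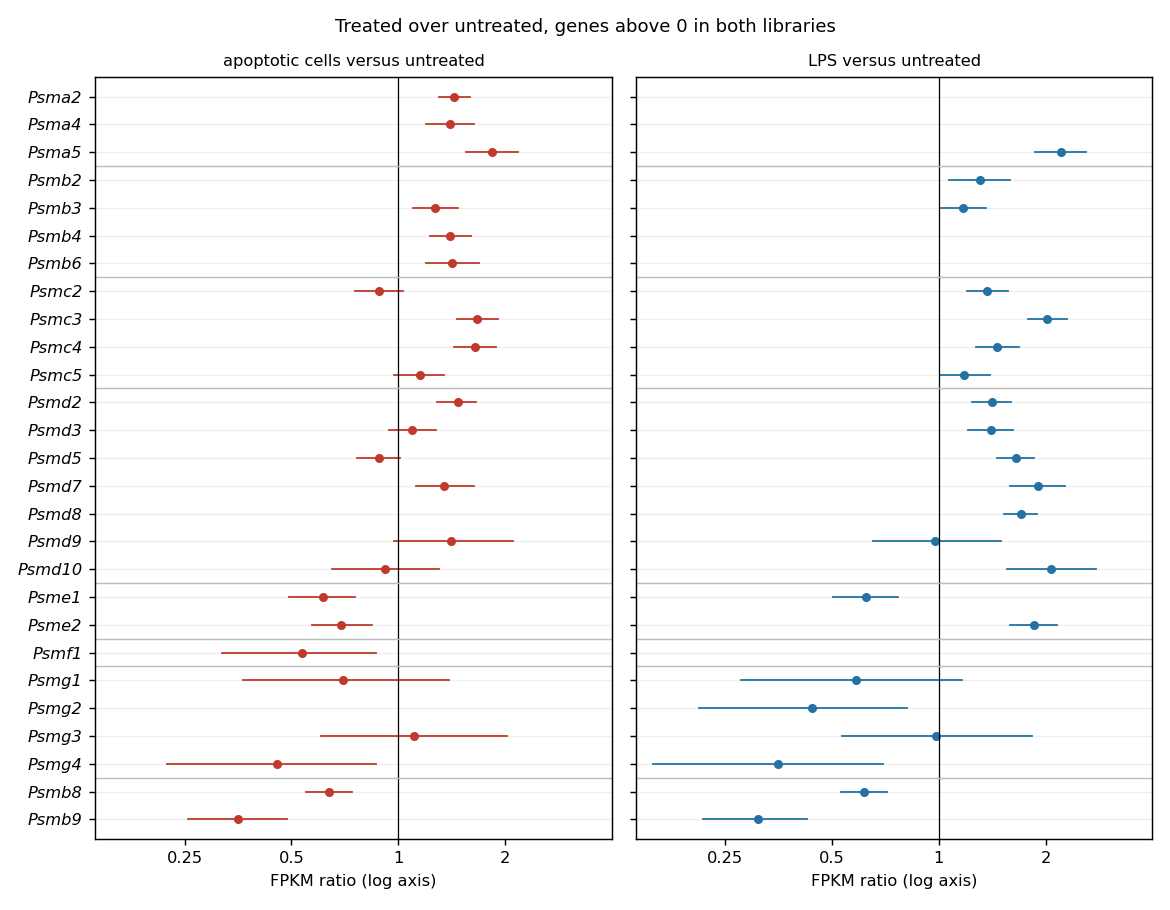
FPKM ratio (log axis) of apoptotic cells over untreated and of LPS over untreated for each member above 0 in both libraries, with Psmb8 and Psmb9 at the bottom; points are plain ratios, lines the approximate counting intervals. Core and most ATPase genes lie right of 1 in both panels, of which the LPS panel holds only 3 core genes. Psme1, Psmg1, Psmg4, Psmb8 and Psmb9 lie left of 1 in both panels, Psmg1 with intervals that span 1. Psme2 is at 0.692 after apoptotic cells and 1.85 after LPS.

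The activator genes parted after LPS. Psme1 and Psme2 encode the alpha and beta subunits of PA28, an activator that interferon gamma is known to induce and that opens the core for peptide production. Psme1 stood at 50.1 FPKM after apoptotic cells, 51.1 FPKM after LPS and 81.9 FPKM untreated. Psme2 stood at 78.0, 209 and 113 FPKM in that order. The untreated library was thus the highest for Psme1, while LPS was the highest for Psme2, at 1.85 times untreated (1.59 to 2.16) where Psme1 stood at 0.624 times (0.502 to 0.769). Under median-of-ratios scaling the log2 ratio of Psme1 after LPS was -0.06 in place of -0.67, and that of Psme2 was 1.51 in place of 0.88. After apoptotic cells both stood lower. In mm10 they lie near each other on chromosome 14, Psme1 on the plus strand from 55578123 to 55581529 and Psme2 on the minus strand from 55587441 to 55591113. Psme3, which encodes the nuclear activator PA28 gamma, had a value in the untreated library only, 83.3 FPKM.

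Psmf1 and the Psmg genes were low beside most other members. Psmf1 stood at 7.47 FPKM after apoptotic cells and 13.9 FPKM untreated and was listed at 0 after LPS. Psmg4 stood at 13.3 FPKM after apoptotic cells, 10.3 FPKM after LPS and 29.3 FPKM untreated, so both treated values lay under the untreated one. On its short transcript these stand for only about 14, 11 and 33 reads, and the ratio after LPS was 0.352 (0.157 to 0.698). Psmg2, partner of Psmg1 in an early assembly complex, stood at 5.47 FPKM after LPS and 12.4 FPKM untreated (0.440, 0.211 to 0.813), and was listed at 0 after apoptotic cells. Psmg1 stood at 6.598, 5.51 and 9.42 FPKM after apoptotic cells, after LPS and untreated, and Psmg3, partner of Psmg4, at 15.5, 13.7 and 14.0 FPKM. The intervals of Psmg1 and Psmg3 spanned 1 in both comparisons with the untreated library.

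Among the 17 members above 0 in all 3 libraries, the untreated library was the lowest for 8 (47.1%), against 25.1% of 2891 genes. These were Psma5, Psmb3, Psmc3, Psmc4, Psmc5, Psmd2, Psmd3 and Psmd7, all structural subunits. In Psmc5 and Psmd3 the untreated and apoptotic-cell values lay within counting error of each other. LPS was the lowest for 4 (23.5%, against 53.3% of all genes): Psmd9, Psmg1, Psmg3 and Psmg4. Counting error left the lowest library open in all 4. The LPS value lay within it of the untreated value for Psmd9, Psmg1 and Psmg3. For Psmg4 it lay within counting error of the apoptotic-cell value (ratio interval of apoptotic cells over LPS 0.553 to 3.19). Apoptotic cells were the lowest for 5 (29.4%, against 21.6%): Psmc2, Psmd5, Psmd10, Psme1 and Psme2. Of these only Psme2 was lowest beyond counting error. The order also moved with scaling. Under median-of-ratios scaling Psmc2, Psmd5 and Psmd10 stood higher after apoptotic cells than untreated, and Psmd9 and Psmg3 higher after LPS than untreated. Psmg1 and Psmg4 then stood lower after apoptotic cells than after LPS. The shares of all genes were not counted again under that scaling.

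The immunoproteasome subunit genes Psmb8 and Psmb9, which take the place of constitutive catalytic subunits, ran opposite to the core genes that could be compared with untreated in both comparisons. Psmb8 stood at 67.3 FPKM after apoptotic cells, 65.0 FPKM after LPS and 106 FPKM untreated, and Psmb9 at 15.6, 13.7 and 44.2 FPKM. For Psmb9 that is 0.353 times untreated after apoptotic cells (0.256 to 0.485) and 0.309 times after LPS (0.217 to 0.424). Psmb10 stood at 26.9 FPKM after apoptotic cells and 31.6 FPKM after LPS and was listed at 0 untreated. Under median-of-ratios scaling the log2 ratio of Psmb8 after LPS shrank to -0.07, and that of Psmb9 to -1.03.

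Some values may hold reads of other genes, since the strandedness of the libraries is not given. Exons overlap a gene on the opposite strand in Psma4 (AY074887), Psma5 (1700010K24Rik), Psmb7 (Nek6), Psmb8 (Gm20496), Psmb9 (Tap1), Psmc3 (Slc39a13), Psmd3 (Gm12356), Psmd9 (Gm26745), Psmd13 (Sirt3) and Psme1 (Emc9). Exons of Psmg3 overlap Gm26938 on the same strand. Psmb6 and Psmb7 have annotated pseudogenes, whose reads may not be told from theirs.

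Set directly against LPS, apoptotic cells gave most proteasome genes a ratio under 2-fold, with Psme2 and Psmd10 as the exceptions on the values as deposited. The median log2 ratio over 24 members was -0.02, beside 0.32 over all 4599 genes above 0 in both, and under median-of-ratios scaling, which moved the all-gene median by -0.33, it was -0.42. Of the 24 members 11 were higher after apoptotic cells, against 69.6% of all genes, and 13 were lower, against 30.4%. Under median-of-ratios scaling only Psmd13 and Psmd9 stayed on the higher side and 22 were lower, against 49.3% and 50.7% of all genes. At 2-fold 0 were higher, against 15.7% of all genes, and 2 were lower, against 5.54%: Psme2 (-1.41; ratio 0.374, 0.314 to 0.445) and Psmd10 (-1.13; 0.442, 0.327 to 0.597). Under median-of-ratios scaling Psmd5 (-1.28) and Psmc2 (-1.03) passed as well, 4 members against 9.63% of all genes. Psmd5 (-1.01) also passed under upper-quartile scaling, 3 members against 6.63% of all genes. At 1.5-fold 0 were higher, against 33.4%, and 4 were lower, against 10.8%. Psmd5 (-0.88), Psmc2 (-0.63) and Psma6 (-0.55) came next on the lower side. On the higher side Psmd13 (0.55), Psmd9 (0.47), Psmd6 (0.37), Psmg4 (0.34) and Psmb1 (0.24) led. Of these, only Psmd13 (1.33 to 1.63), Psmd6 (1.07 to 1.60) and Psmb1 (1.06 to 1.32) had a counting interval above 1.

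**Figure D3:**
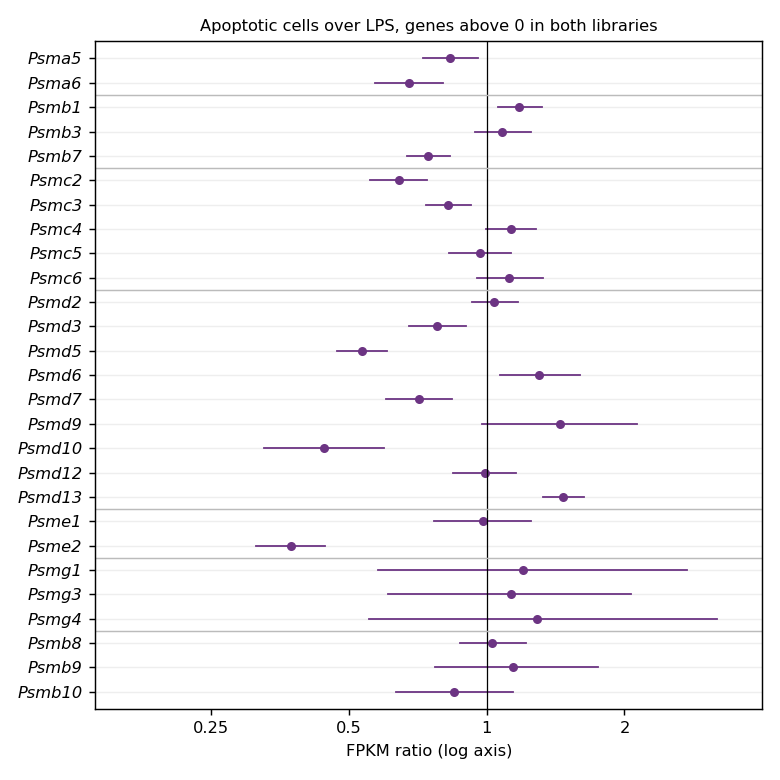
FPKM ratio (log axis) of apoptotic cells over LPS for each member above 0 in both libraries, with the 3 immunoproteasome genes at the bottom; points are plain ratios, lines the approximate counting intervals. Psme2 (0.374) and Psmd10 (0.442) stand farthest to the left, Psmd13 (1.47) farthest to the right.

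Genes that work with the proteasome were read from lists. Among associated and assembly factors, 11 of 14 were in the files. Pomp, the chaperone of core maturation, stood at 151 FPKM after apoptotic cells, 172 FPKM after LPS and 96.6 FPKM untreated. It was lowest in the untreated library, as were Psma5 and Psmb3, the only core genes above 0 in all 3 libraries. After apoptotic cells 4 of the 4 that could be compared with untreated were higher (against 44.5% of all genes). At 2-fold 0 passed in either direction, where 12.4% of all genes were higher and 16.4% lower. After LPS 2 of 3 were higher (against 33.5%). Txnl1, which encodes a thioredoxin-like protein bound to the regulatory particle, lay at the 2-fold threshold (44.3 against 21.6 FPKM, 1.00). It was the only 1 of the 3 to reach it, where 8.51% of all genes were 2-fold higher and 26.2% lower. Uchl5, a deubiquitinase of the particle, stood at 20.9, 10.4 and 19.2 FPKM. Shfm1, which encodes the smallest lid subunit, had 383 FPKM after apoptotic cells, 350 FPKM after LPS and a listed 0 untreated.

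The segregase gene Vcp, whose product pulls ubiquitin-tagged proteins out of complexes, stood at 230 FPKM after apoptotic cells, 257 FPKM after LPS and 176 FPKM untreated. Of the shuttle and segregase genes 4 of 6 were higher after apoptotic cells (against 44.5% of all genes) and 3 of 5 after LPS (against 33.5%) than untreated. In these comparisons 0 reached 2-fold in either direction, where 12.4% and 8.51% of all genes were 2-fold higher and 16.4% and 26.2% lower. Under median-of-ratios scaling Vcp (1.17) and Ufd1l (1.00) passed 2-fold after LPS, as did Pomp (1.45). Rad23b, at 39.8, 43.9 and 46.1 FPKM, turned to the higher side of untreated under median-of-ratios scaling in both comparisons. The ubiquitin fusion gene Rps27a stood at 1420, 1154 and 2071 FPKM in that order. Transcriptional regulators and their control genes could be compared for Keap1, Nfyb, Nfyc, Stat3 and Foxo4. After apoptotic cells 5 of 5 were lower than untreated (against 55.4% of all genes, and 16.4% at 2-fold), of which Stat3 reached 2-fold (28.4 against 68.7 FPKM, -1.25). After LPS 5 of 5 were lower (against 66.5% of all genes, and 26.2% at 2-fold), where Stat3 turned to the higher side under median-of-ratios scaling, and Nfyb (5.21 against 12.3 FPKM, -1.10) and Foxo4 (1.15 against 5.89 FPKM, -1.68) reached 2-fold, Nfyb not under that scaling (-0.55) or upper-quartile scaling (-0.95). Nfe2l2, which encodes NRF2, was listed at 69.2 FPKM untreated and at 0 in both treated libraries. Others of this list were listed at 0 untreated. Mafk (9.32 and 12.7 FPKM) and Foxo3 (4.55 and 3.79 FPKM) had values after apoptotic cells and LPS. Nfya (11.5 FPKM), Ngly1 (4.35 FPKM) and Maff (2.78 FPKM) had values after apoptotic cells only. Downstream of the proteasome, the oligopeptidase gene Thop1 stood at 6.84 FPKM after apoptotic cells, 2.65 FPKM after LPS and 2.59 FPKM untreated, at least 2-fold higher after apoptotic cells than in either other library (1.13 over untreated and 1.10 over LPS, the second 0.79 under median-of-ratios scaling). The leucine aminopeptidase gene Lap3 stood at 22.2, 16.9 and 12.1 FPKM.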

How the data were processed

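The series holds 3 deposited tables, 1 for each library of mouse peritoneal macrophages after apoptotic cells, after LPS and untreated. Values were taken as FPKM: per the submitters' processing notes, the authors mapped to mm10 and used Cufflinks 2.2.1, which reports FPKM, besides cutadapt 1.14, Cuffdiff and TopHat2 2.1.0. The labels give no options, annotation or strandedness. Ratios, log2((FPKM + 1) / (FPKM + 1)), were formed over the whole table for genes above 0 in both libraries averaging 1 FPKM or more, and 2-fold differences were counted. No test is possible with 1 library per group. Depth was estimated from the best-fitting step, within a fixed search range, in low values of genes with 1 annotated transcript (common length offset 200 bases). The periodicity was weak (mean cosine 0.276 to 0.316), and reads were not recovered. Ratio intervals are exact binomial at 95%, using the shortest principal GENCODE M21 transcript. Coordinates are GENCODE M21. The ratio and depth calculations were run on simulated counts with counting error only (Python 3.11.15). The simulated steps lay inside the search range, so this does not check the depth fit on the deposited values. Members, lists and tests were chosen with earlier results of these data known. Genes named were the extremes of each class, the 5 largest ratios in each direction, members with a listed 0 and small classes in full. Some listed genes are not reported here. Alternatives covered pseudocount, filter, threshold, scaling and zeros.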

Additional observations from a re-analysis of the deposited data

How the results depend on the processing

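With 1 library per group no replicate could be left out. No paired analysis was possible because each group has 1 library. The median over members kept its direction for both comparisons with the untreated library under every alternative in the plan. It moved to 1.08 (LPS against untreated) and -0.42 (apoptotic cells against LPS) under median-of-ratios scaling, and to 0.87 for LPS against untreated when set relative to the median of all genes, an alternative added after the data were seen. For apoptotic cells against untreated it was 0.27 as deposited, 0.48 under median-of-ratios scaling and 0.14 over the 17 members above 0 in all 3 libraries. Counts of 2-fold members, given as higher and lower, were small and moved often. For apoptotic cells against untreated (0 and 1) they were 3 and 3 at 1.5-fold, 1 and 0 with median-of-ratios scaling, 8 and 6 when a listed 0 counts as a value and 1 and 0 relative to the median of all genes, and the lower count was 0 with a pseudocount of 5 and at 4-fold. For LPS against untreated (3 and 2) they were 1 and 1 with a pseudocount of 5, 7 and 4 at 1.5-fold, 0 and 0 at 4-fold, 12 and 0 with median-of-ratios scaling, 5 and 1 with upper-quartile scaling, 11 and 9 with a listed 0 as a value and 7 and 1 relative to all genes, and the lower count was 1 over genes above 0 in all 3 libraries. For apoptotic cells against LPS (0 and 2) they were 6 and 6 with a listed 0 as a value. The lower count was 1 with a pseudocount of 5, 4 at 1.5-fold and 0 at 4-fold. It was 3 with upper-quartile scaling, 3 relative to the median of all genes and 4 with median-of-ratios scaling. That scaling turned the sign of Psmc2, Psmd5 and Psmd10 (apoptotic cells against untreated), of Psmd9 and Psmg3 (LPS against untreated, upper-quartile scaling too) and, for apoptotic cells against LPS, of 11 of 27 genes: Psmb1, Psmb3, Psmc4, Psmc6, Psmd2, Psmd6, Psmg1, Psmg3, Psmg4, Psmb8 and Psmb9, of which Psmb3, Psmd2 and Psmb8 turned under upper-quartile scaling too. It brought LPS against untreated to -0.06 for Psme1 and -0.07 for Psmb8. The median for apoptotic cells against LPS, near 0 as deposited, was 0.002 when rescaled to a sum of 1000000. The cause of these moves was not tested.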
